A study of Mus musculus with 4 samples.

Results

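The genes described here are 9 genes of retinoid synthesis, binding and turnover, Aldh1a2, Aldh1a3, Crabp2, Dhrs3, Dhrs9, Rdh10, Cyp26b1, Rarg and Rxra, of the 32479 genes counted in the epidermis of 4 female C57BL/6N mice at postnatal day 19. They were taken by symbol. The group was chosen by the measured counts of Aldh1a2, which had been seen in the mutant bulge. The values of Aldh1a2 are therefore given as a description, with no test, and tests are given for the other 8 genes. The control mice (ctr, CerS4fl/flK14Cre-) and the CerS4epi-/- mice (CerS4fl/flK14Cre+) were littermates, 2 of each genotype, and all 4 carry floxed alleles of CerS4, a ceramide synthase gene. In CerS4epi-/- mice, Cre driven by the keratin-14 promoter, which is active in basal keratinocytes of the epidermis and in the hair follicle, deletes CerS4, so the model does not separate the follicle from the interfollicular epidermis. Single cells of the back skin epidermis were captured with BD Rhapsody, in which unique molecular identifiers let each captured transcript be counted once.

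Retinoic acid is made from vitamin A in 2 oxidation steps and acts on genes through nuclear receptors. Retinol is oxidised to retinal by Rdh10 and Dhrs9, while Dhrs3 reduces retinal back to retinol. Retinal is oxidised to retinoic acid by Aldh1a1, Aldh1a2 or Aldh1a3. Crabp2 carries retinoic acid to heterodimers of a retinoic acid receptor, of which Rarg is the main one in keratinocytes, and Rxra, and Cyp26b1 breaks retinoic acid down. In skin, retinoids are known for their part in keratinocyte differentiation, in the sebaceous gland and in the hair cycle.

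A barcode was taken as a cell if it held 1200 or more counts, no more than 20% of them mitochondrial. This gave 8480 and 9086 in the ctr mice and 9017 and 7567 in the CerS4epi-/- mice, with a median of 3266.5 to 3884 counts per cell. The mitochondrial limit removed 68 and 91 barcodes in the ctr mice and 363 and 316 in the CerS4epi-/- mice. Cells were put into classes by counts of marker genes, none of them a retinoid gene: the outer bulge by Lhx2 with another bulge marker, the inner bulge by Krt75 with another inner bulge marker, the upper hair follicle by Krt79, and the basal, spinous and granular interfollicular epidermis by their keratins and cornified envelope genes. Values of ctr replicates 1 and 2 and of CerS4epi-/- replicates 1 and 2 are given in this order throughout. The outer bulge-gated cells numbered 73, 47, 133 and 116, with 182071 to 606759 counts per mouse, and the inner bulge-gated cells 47, 41, 26 and 34, with 169075 to 233997 counts. The upper hair follicle-gated cells numbered 712 to 1836 and the basal-gated cells 3411 to 3987 per mouse. Within a genotype the libraries shared 0 cell barcodes, and between genotypes they shared 64 to 102, where random draws would share 72.5 to 92.6. Whether the mice of a genotype were loaded together is not given in the sources used here, and a loading per genotype and the genotype cannot be told apart.

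Cers4 itself was mainly counted in the sebaceous gland-gated cells, at 2648 and 2349 CPM in ctr (counts scaled to the same total in every class and mouse) and 266 and 424 CPM in CerS4epi-/- mice, in 13, 4, 28 and 31 cells. In T cells, which do not express keratin 14, Cers4 stood at 93.4 and 71.0 CPM in ctr and at 87.7 and 105 CPM in CerS4epi-/- mice. In the bulge gates it was counted 2 to 9 times per mouse, which does not allow the same check there. The markers that define the gates were high in them by construction: Krt75 stood at 785 to 1839 CPM in the inner bulge gate and at 8.24 to 22.0 CPM in the outer bulge gate, and Krt79 at 3730 to 4311 CPM in the upper hair follicle gate. Other markers did not keep to the gates. The 6 upper hair follicle markers summed to 32849 and 26627 CPM in the outer bulge gate of ctr mice, as high as the 30629 and 27167 CPM of their own gate. In that of CerS4epi-/- mice they summed to 5994 and 12496 CPM. The 7 outer bulge markers summed there to 3162 and 2774 CPM in ctr and 2773 and 2324 CPM in CerS4epi-/- mice. In the inner bulge gate the upper hair follicle markers went the other way, from 3406 and 1449 CPM to 11637 and 20310 CPM. The 7 basal markers stood there at 28845 to 32787 CPM, no lower than in the basal gate. The bulge gates are therefore named by their rule, and not all of their cells can be taken as bulge cells. Outer bulge-gated cells with under 5 counts of Cst6, an upper hair follicle marker, were 58.9% and 55.3% of the gate in ctr and 76.7% and 69.8% in CerS4epi-/- mice. Upper hair follicle-gated cells with all 6 markers of that list were 8.15% and 6.60% in ctr and 15.6% and 22.9% in CerS4epi-/- mice. Results that touch these gates are also given in cells split by these markers, which does not fully match them. In the outer bulge-gated cells with 5 or more Cst6 counts, Cst6 itself stood at 40568 and 41235 CPM in ctr and at 5688 and 8846 CPM in CerS4epi-/- mice. Expression per cell and the mix of cell states in a gate cannot be told apart from the sums.

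The promoters of 3 genes on which the results below turn are shown first, as the 250 bases before the start of the canonical transcript on GRCm39 (Gencode vM39), written 5′ to 3′ on the strand of the gene. Capitals mark TATAAA and the half-sites of retinoic acid receptors on either strand, which are AGGTCA with its variant GGGTCA, and AGTTCA with its variant GGTTCA.
Aldh1a2, chr9:71122380-71122629: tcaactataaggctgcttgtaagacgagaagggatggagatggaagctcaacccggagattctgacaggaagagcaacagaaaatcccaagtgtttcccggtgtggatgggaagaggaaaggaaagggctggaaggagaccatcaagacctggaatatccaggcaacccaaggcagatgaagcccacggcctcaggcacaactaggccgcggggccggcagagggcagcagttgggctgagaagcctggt
Dhrs9, chr2:69210526-69210775: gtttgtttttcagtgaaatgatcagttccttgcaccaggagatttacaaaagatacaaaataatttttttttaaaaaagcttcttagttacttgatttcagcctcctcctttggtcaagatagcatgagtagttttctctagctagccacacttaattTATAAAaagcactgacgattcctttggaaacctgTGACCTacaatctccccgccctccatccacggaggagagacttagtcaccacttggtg
Cyp26b1, chr6:84565966-84566215: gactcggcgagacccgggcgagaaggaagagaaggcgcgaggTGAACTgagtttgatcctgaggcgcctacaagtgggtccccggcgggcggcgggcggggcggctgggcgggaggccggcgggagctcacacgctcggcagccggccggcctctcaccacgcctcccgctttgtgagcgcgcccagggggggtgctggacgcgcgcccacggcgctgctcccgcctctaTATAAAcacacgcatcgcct
Cyp26b1 is on the minus strand and the other 2 are on the plus strand. Of the 31966 promoters of this length, 38.6% hold at least 1 such half-site and 7.80% hold TATAAA on the strand of the gene. In these windows Cyp26b1 holds TATAAA 20 bases and Dhrs9 92 bases before the start, and both hold 1 half-site. The Aldh1a2 window holds none of these letters. A pair of half-sites in direct repeat, the arrangement named DR1, DR2 or DR5 by its spacing, was matched in 0.141%, 0.119% and 0.0845% of all promoters and in none of the 3 windows, which says only that the letters are not in these windows. Cyp26a1, the classical retinoic acid target, holds a DR5 match 17 bases before its start, and its count was 0 in every mouse of the 6 keratinocyte gates. The share of G and C was 55.6% in the Aldh1a2 window, 39.2% in that of Dhrs9 and 72% in that of Cyp26b1, against a median of 51.2% over all promoters.

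Aldh1a2 (GRCm39 chr9:71122630-71203527, plus strand) was counted 3 times in each ctr mouse and 195 and 348 times in the CerS4epi-/- mice. Cells with a count were 3 of 8480 and 3 of 9086 in ctr (0.0354% and 0.0330%), each with 1 count, and 89 of 9017 and 131 of 7567 in CerS4epi-/- mice (0.987% and 1.73%), with up to 13 counts in a cell. The exact 95% intervals of these shares, which cover counting error only, were 0.00730 to 0.103% and 0.00681 to 0.0965% in ctr and 0.793 to 1.21% and 1.45 to 2.05% in CerS4epi-/- mice. All of these counts were whole, and no other counted gene overlaps Aldh1a2. 

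In outer bulge-gated cells Aldh1a2 stood at 3.95 and 0 CPM in ctr and at 142 and 236 CPM in CerS4epi-/- mice. The 1 and 209 counts per genotype gave a ratio of 80.6 with an exact counting interval of 14.3 to 3200. The genotypes did not overlap. That pattern chose the gene. The cells with a count were 24.8% and 36.2% of the CerS4epi-/- outer bulge-gated cells, and 11.8% and 18.4% is the share expected when each cell is thinned to 1200 counts. In T cells of CerS4epi-/- mice, taken as the background of free RNA, Aldh1a2 was counted in 0 of 272 cells, which allows a share of up to 1.10%. Their median depth was 1922 and 1777 counts per cell, against 3637 and 3374.5 in the outer bulge gate. Barcodes not kept as cells held Aldh1a2 at 5.44 and 10.4 CPM in these mice. The part of free RNA in the level of any gate was not tested. 

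The gene was not confined to the bulge gates. Of the Aldh1a2 counts of the CerS4epi-/- mice, 44.1% and 35.3% lay in outer bulge-gated cells, 44.1% and 33.0% in upper hair follicle-gated cells, 6.67% and 23.3% in basal-gated cells and 3.08% and 6.32% in inner bulge-gated cells. In the upper hair follicle gate the level was 0 CPM in both ctr mice and 10.1 and 16.7 CPM in CerS4epi-/- mice, at least 24.5-fold higher against the floor of 3 counts over the ctr group. In basal-gated cells it was 0 and 0 against 0.911 and 7.55 CPM, at least 28.7-fold higher, most of it from CerS4epi-/- replicate 2. There 56 of its counts lay in the 333 basal-gated cells with 2 or more outer bulge markers, at 45.7 CPM, and 2 in the 1948 cells with 0 markers, at 0.339 CPM. Replicate 1 held 1.35 and 0 CPM in such cells. In inner bulge-gated cells it was 0 and 0 against 34.9 and 100 CPM, at least 9.62-fold higher. Without the inner bulge-gated cells that held 3 or more counts of Krt79, it was 0 CPM in CerS4epi-/- replicate 1 and 94.3 CPM in replicate 2. In spinous-gated cells 1 count was seen in ctr and 4 in CerS4epi-/- mice, and in granular-gated cells 3 and 7, too few for a comparison. In Langerhans cells 1 count was seen, in ctr replicate 2, and in sebaceous gland-gated cells none in 76 cells, which allows a share of up to 3.95%.

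**Figure D1:**
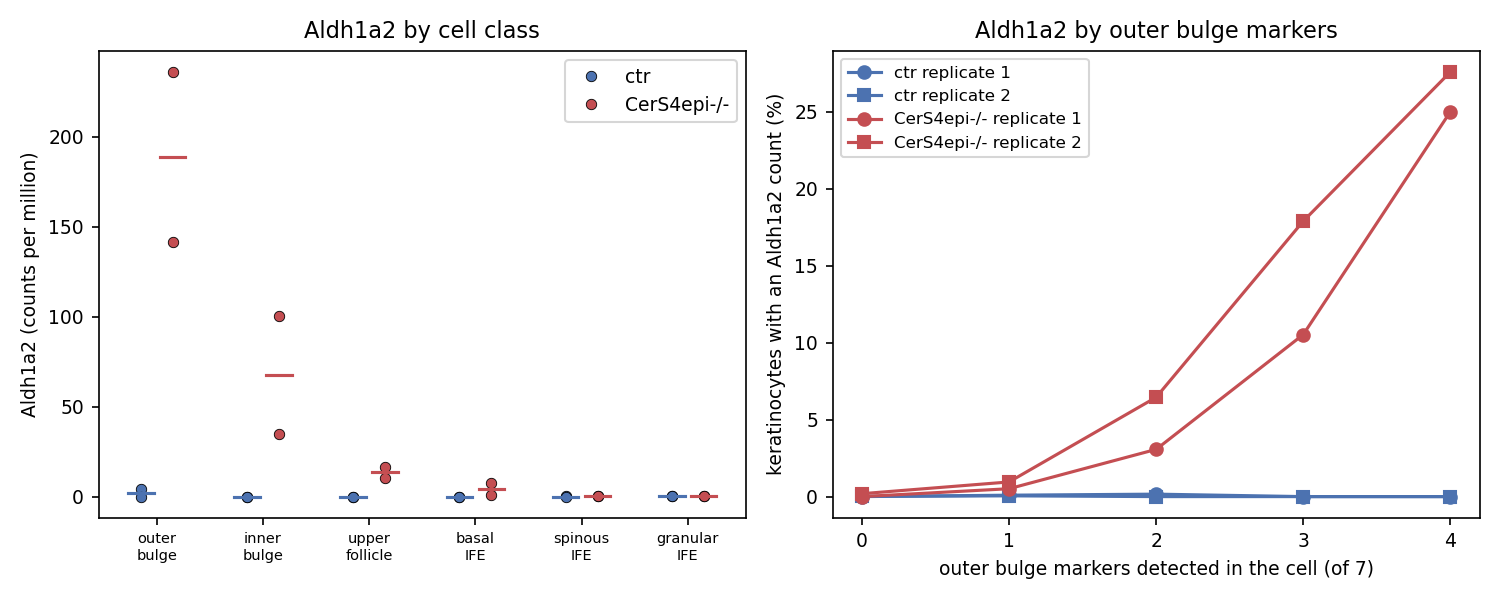
Left, Aldh1a2 level in CPM (y axis) in 6 keratinocyte gates (x axis, IFE is the interfollicular epidermis), with 1 point per mouse and a bar at the mean of 2 mice. Right, percent of keratinocytes with an Aldh1a2 count (y axis) against the number of 7 outer bulge markers detected in the cell (x axis), 1 line per mouse. The CerS4epi-/- mice reach 142 and 236 CPM in the outer bulge gate, and their shares are higher at 3 markers (10.5% and 17.9%) than at 0 markers (0% and 0.189%), while the ctr lines stay at or under 0.160%.

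The share of keratinocytes with an Aldh1a2 count rose from 0 to 4 outer bulge markers in the cell. With 0 of the 7 markers detected it was 0 of 4184 cells in CerS4epi-/- replicate 1 and 7 of 3700 in replicate 2. With 1 marker it was 0.512% and 0.952%, with 2 markers 3.07% and 6.45%, with 3 markers 10.5% and 17.9%, and with 4 markers 25.0% and 27.6% of 36 and 29 cells. Of the 11 and 6 cells with 5 or more markers, 1 and 0 held a count. In ctr mice none of the 121 and 77 cells with 3 markers held a count. The median depth of the CerS4epi-/- cells rose over the same steps, from 3835.5 and 3117 counts at 0 markers to 5604 and 4974 at 3 markers, and its part in these shares was not tested. The CerS4epi-/- level was above that of ctr on either side of the Cst6 split: outer bulge-gated cells with under 5 Cst6 counts held 100 and 201 CPM in CerS4epi-/- mice and 0 in ctr, and those with 5 or more held 228 and 284 CPM against 7.91 and 0 CPM. 

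The CerS4epi-/- cells that held Aldh1a2 differed from the other cells of their gate in named keratins, a description chosen after the values were seen. In shares expected after thinning to 1200 counts, Krt6a, a keratin of the companion layer, inner bulge and wounded epidermis, was detected in 95% and 99% of the 33 and 42 positive outer bulge-gated cells and in 58.0% and 71.5% of the 100 and 74 negative cells. In the upper hair follicle gate it was detected in 91.4% and 86.0% of the 41 and 48 positive cells and in 11.9% and 15.9% of the negative cells. Krt15, a keratin of basal and bulge cells, went the other way, with 11.4% and 13.7% against 55.8% and 52.7% in the upper hair follicle gate. Krt14, also a basal keratin, did not go with Krt15. It was at 82.5% and 81.2% of positive against 51.5% and 53.5% of negative cells there, and at 100% and 99.0% against 76.3% and 84.7% in the outer bulge gate. The bulge marker Sox9 was at 73.0% and 74.1% against 43.0% and 43.3% in the upper hair follicle gate. Sox9 was higher in positive cells of the outer bulge gate too, as was Lhx2 in the upper hair follicle gate. In the outer bulge gate Lhx2 was lower, at 50.1% and 41.4% against 53.4% and 53.9%. Cd34 was lower there as well, at 0.668% and 0% against 5.32% and 2.98%, and the mice differed for Postn. The upper hair follicle marker Cst6 was higher in positive cells of both gates, and Krt79 was lower. In the outer bulge gate Cst6 was at 54.1% and 54.8% against 29.2% and 34.9%. The summed counts of dermal and mural markers were low in the bulge gates: the 7 fibroblast and dermal papilla markers together stood at 15.8 to 42.2 CPM per mouse in the outer bulge gate, with 2 of the 7 at 0 in all mice, and of the 3 mural markers Rgs5 and Myh11 were at 0 in all mice. The third mural marker, Acta2, moved with Aldh1a2, at 0 and 0 CPM in ctr and 28.0 and 48.0 CPM in CerS4epi-/- outer bulge-gated cells, and its part was not tested. 

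The 5 genes whose log2(CPM + 1) over the 36 class-by-mouse sums was most like that of Aldh1a2, of 11483 genes reaching 20 CPM, were Nes (Pearson r = 0.906), Pcp4 (0.898), Myl9 (0.861), Fscn1 (0.860) and Serpine2 (0.856). The sums of a mouse share its library, so these values are a description. Nes encodes an intermediate filament, Myl9 a myosin light chain and Fscn1 an actin-bundling protein. In the outer bulge gate Pcp4 stood at 0 and 0 CPM in ctr and at 111 and 248 CPM in CerS4epi-/- mice, and Serpine2 at 0 and 0 against 39.6 and 94.0 CPM. The genes were picked by sums that include these, so the contrast follows from the choice and is no separate result. 

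The other 8 genes were set against genotype in each gate with edgeR. A gene enters this fit when enough mice hold counts of it, so genes that are high in 1 genotype can pass through that genotype alone. In outer bulge-gated cells 5 of the 8 were tested and 1 passed the threshold, Crabp2, which was lower, where 6.05% of all genes passed it. In inner bulge-gated cells 1 of 4 passed, Crabp2, which was higher, where 6.53% of all genes did. In upper hair follicle-gated cells 3 of 8 passed, Crabp2, Aldh1a3 and Dhrs3, all higher, where 13.9% of all genes did. In basal-gated cells 1 of 8 passed (6.82% of all genes), in spinous-gated cells 2 of 8 (4.57%), and in granular-gated cells 3 of 8 (11.3%). The median log2 change of the tested genes was -0.57, 0.34, 0.42, 0.11, 0.09 and 0.01 in these 6 gates, against 0.03, 0.00, 0.00, 0.01, 0.00 and -0.02 over all genes tested. With 2 mice of each genotype, a lack of overlap between the genotypes was common. It was seen for 48.5%, 46.8%, 58.6%, 56.0%, 52.8% and 58.7% of all genes tested in these gates. Among the tested retinoid genes it was seen for 3 of 5, 3 of 4, 6 of 8, 4 of 8, 4 of 8 and 5 of 8.

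**Figure D2:**
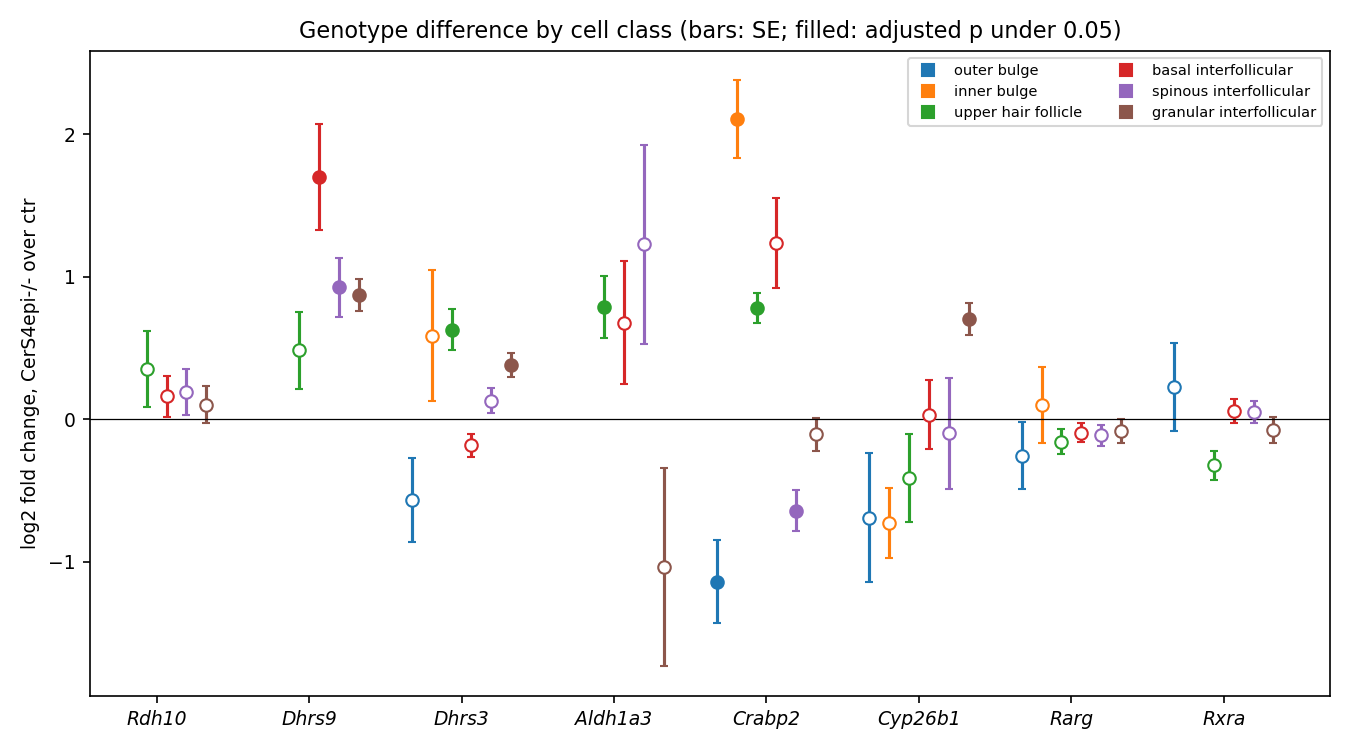
Log2 fold change of CerS4epi-/- over ctr (y axis) for each retinoid gene other than Aldh1a2 (x axis) in 6 keratinocyte gates (colours), with bars of 1 SE from the edgeR fit over 2 mice per genotype. Filled points have an adjusted p under 0.05, genes under the filter on low counts have no point. Crabp2 runs from -1.14 in the outer bulge gate to 2.11 in the inner bulge gate, and no point of Rdh10, Rarg or Rxra is filled.

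Rdh10 and Dhrs9 oxidise retinol. Rdh10 (chr1:16175555-16203958, plus strand), whose product is the main retinol dehydrogenase of the embryo, stood at 12.5, 10.9, 13.2 and 11.7 CPM in basal-gated cells and at 17.4, 8.28, 16.5 and 16.3 CPM in upper hair follicle-gated cells. The genotypes overlapped in both, and its log2 differences of 0.10 to 0.35 in the 4 gates where it was tested did not pass the threshold (edgeR adjusted p = 0.442 to 0.667). Among classes it was higher in granular- than in spinous-gated cells, by 1.11 ± 0.11 (SE) on the log2 scale of the fit (edgeR adjusted p = 2.9e-06), and in upper hair follicle- than in basal-gated cells, by 0.50 ± 0.15 (edgeR adjusted p = 0.0179). 

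Dhrs9 (chr2:69210776-69234877, plus strand) rose in the interfollicular epidermis of CerS4epi-/- mice. In granular-gated cells its levels were 19.2 and 18.4 CPM in ctr and 34.1 and 30.5 CPM in CerS4epi-/- mice, with no overlap. The log2 change was 0.87 ± 0.11 (SE; edgeR adjusted p = 0.00165). In spinous-gated cells they were 5.10 and 7.74 against 11.4 and 13.3 CPM, a change of 0.92 ± 0.21 (edgeR adjusted p = 0.0435). In basal-gated cells they were 0.893 and 0.598 against 2.03 and 2.704 CPM, from 10, 7, 29 and 29 counts. The change was 1.70 ± 0.37 (edgeR adjusted p = 0.0336). The granular call kept its side of the threshold under all 13 alternatives. The basal call was lost under 5 of 12 alternatives, with DESeq2 (adjusted p = 0.172), with the class of highest marker score (edgeR adjusted p = 0.136) and without ctr replicate 1, ctr replicate 2 or CerS4epi-/- replicate 2 (edgeR adjusted p = 0.099 to 0.180). With at most 10% mitochondrial counts the gene was under the filter. The spinous call was lost under 5 of 13, with DESeq2 (0.0592), without either CerS4epi-/- mouse (edgeR adjusted p = 0.0647 and 0.0912) and with stricter minimum counts or mitochondrial limits for a cell (edgeR adjusted p = 0.0585 and 0.0788). In the outer bulge gate Dhrs9 was counted 0 and 0 times in ctr and 11 and 8 times in CerS4epi-/- mice, at least 2.44-fold higher against the floor of 3 counts over the group. It was under the filter on low counts there. In upper hair follicle-gated cells it stood at 5.90, 7.04, 9.61 and 7.56 CPM, and its change of 0.48 did not pass the threshold (edgeR adjusted p = 0.286). Along the epidermal layers Dhrs9 was higher in spinous- than in basal-gated cells by 2.79 ± 0.20 and in granular- than in spinous-gated cells by 2.01 ± 0.11 (log2, edgeR adjusted p = 3.7e-07 and 4.0e-08).

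Dhrs3 (chr4:144619245-144654779, plus strand), the retinal reductase that lowers the supply of retinoic acid and that retinoic acid is known to induce, rose in the upper hair follicle and granular gates. In upper hair follicle-gated cells it stood at 32.3 and 34.4 CPM in ctr and 44.6 and 54.7 CPM in CerS4epi-/- mice, a log2 change of 0.63 ± 0.14 (SE; edgeR adjusted p = 0.0183). In granular-gated cells it stood at 59.3 and 59.1 against 71.1 and 74.6 CPM, a change of 0.38 ± 0.08 (edgeR adjusted p = 0.0190). Both calls were lost without CerS4epi-/- replicate 2 (edgeR adjusted p = 0.0867 and 0.0641), and the granular call under 3 other alternatives on which cells enter (edgeR adjusted p = 0.0596 to 0.0854). The upper hair follicle call was also lost with DESeq2 (0.0923) and in cells with at most 4 of the 6 markers (0.42, edgeR adjusted p = 0.195). The order was turned in the outer bulge gate, at 119 and 110 against 89.0 and 61.4 CPM, but the change of -0.57 ± 0.30 did not pass the threshold (edgeR adjusted p = 0.337). Its difference between the outer bulge and upper hair follicle changes, -1.17 ± 0.35, did not pass it either (edgeR adjusted p = 0.0753). In basal-gated cells it stood at 67.6, 68.9, 59.1 and 56.0 CPM (-0.18, edgeR adjusted p = 0.223). Of the ctr classes Dhrs3 was highest in sebaceous gland-gated cells (163 ± 53.7 CPM, SD, n = 2) and next in outer bulge-gated cells (114 ± 6.13 CPM), and the 2 mice of either did not overlap with those of the next class. The sebaceous gland gate of ctr replicate 2 held only 4 cells, with the granular markers at 74848 CPM and the sebaceous gland markers at 2899 CPM. Not all of that sum can be taken as sebaceous.

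Aldh1a3 (chr7:66040638-66077850, minus strand), which oxidises retinal like Aldh1a2, had its highest mean in upper hair follicle-gated cells. The mice overlapped with those of the next class in both genotypes, and ctr replicate 2 held 7.48 CPM in granular-gated cells. In the upper hair follicle gate it stood at 9.94 and 7.45 CPM in ctr and 14.8 and 14.7 CPM in CerS4epi-/- mice, a log2 change of 0.79 ± 0.22 (SE; edgeR adjusted p = 0.0414). It was higher in this gate than in basal-gated cells by 2.98 ± 0.23 (edgeR adjusted p = 1.2e-05). The genotype call was lost without any of 3 mice, ctr replicate 2, CerS4epi-/- replicate 1 and CerS4epi-/- replicate 2 (edgeR adjusted p = 0.0924 to 0.140), with DESeq2 (adjusted p = 0.311) and without the 5% of cells with most counts (edgeR adjusted p = 0.107). In cells with all 6 upper hair follicle markers it stood at 15.4 and 4.40 CPM in ctr and 39.3 and 27.7 CPM in CerS4epi-/- mice. In cells with at most 4 markers it stood at 5.91 and 7.66 against 2.45 and 3.07 CPM, where the fitted change was -1.26 (edgeR adjusted p = 0.128). In both bulge gates together it was counted 0 times in ctr and 4 times in CerS4epi-/- mice, so that it was at or near 0 where Aldh1a2 was highest. In spinous-gated cells its 88 counts in CerS4epi-/- replicate 2 stood against 18 to 38 in the other 3 mice.

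**Figure D3:**
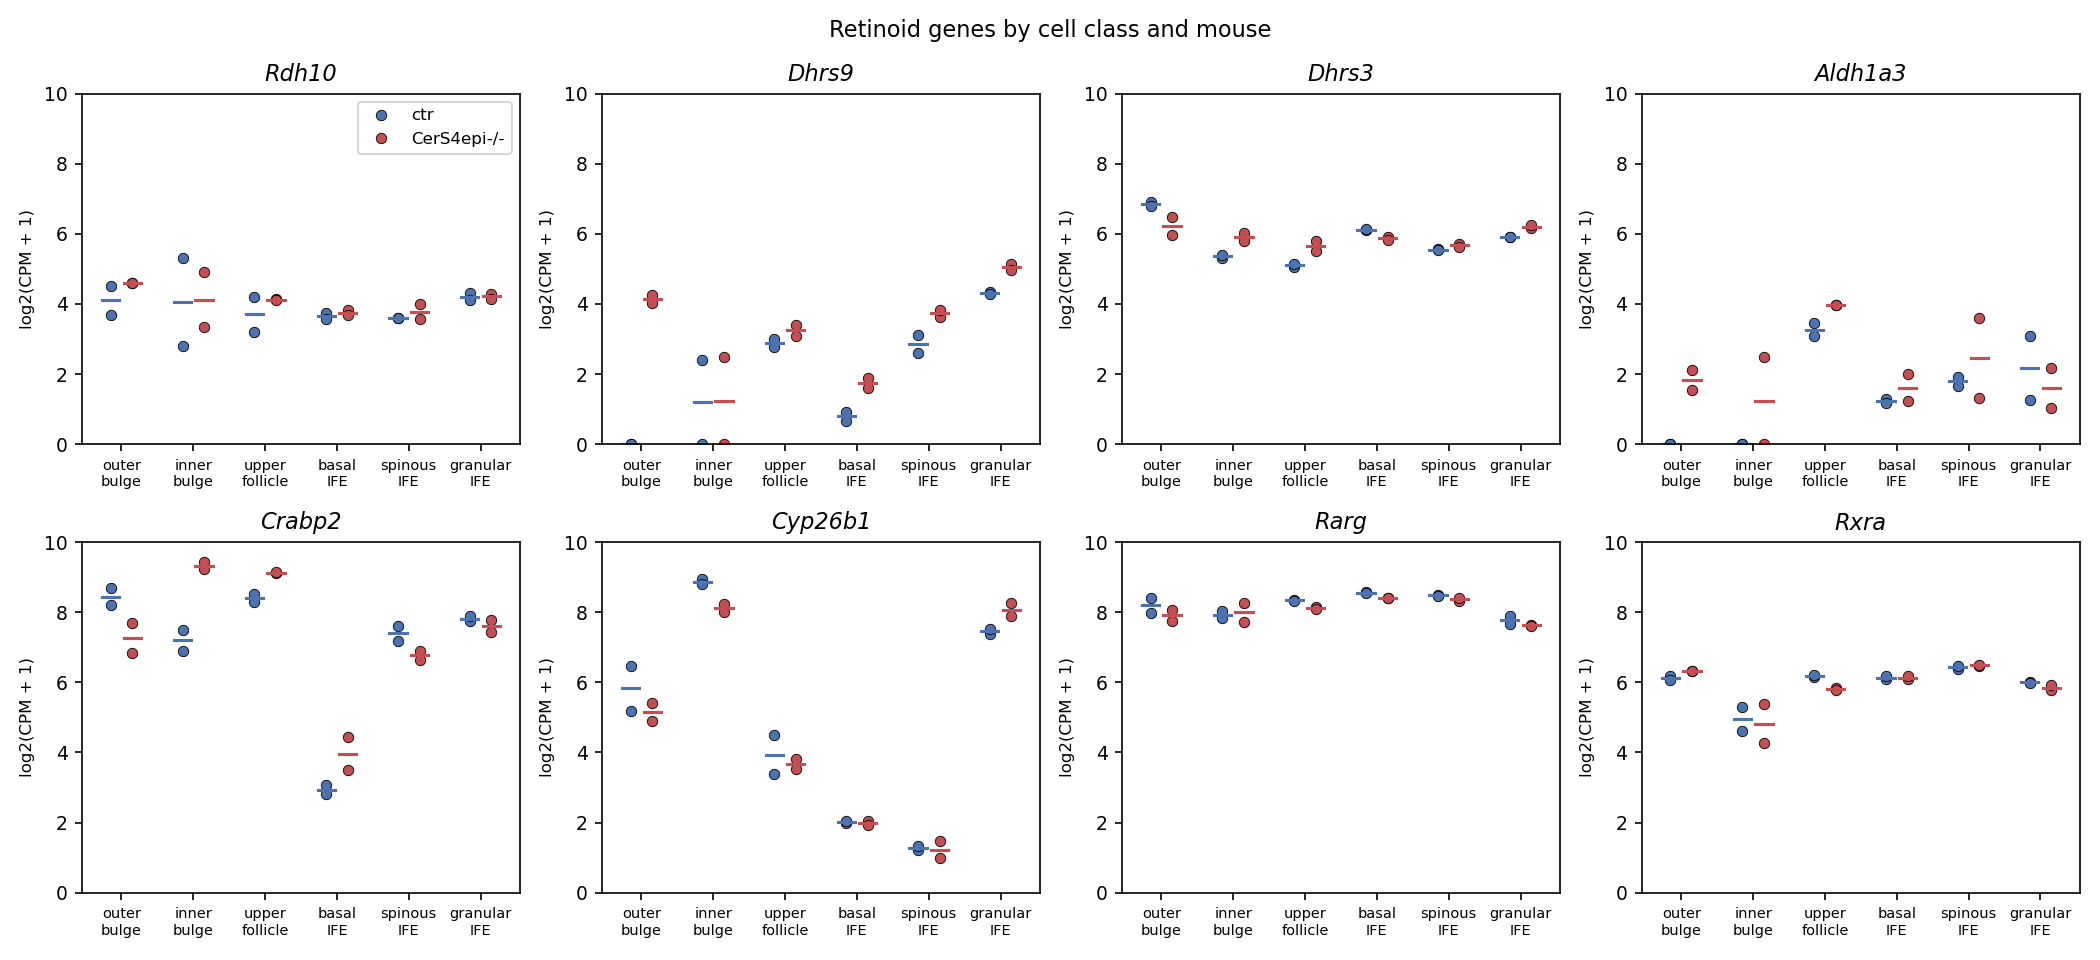
Level of the 8 genes other than Aldh1a2 as log2(CPM + 1) (y axes, 0 to 10) in 6 keratinocyte gates (x axes, IFE is the interfollicular epidermis), with 1 point per mouse and a bar at the mean of 2 mice. Crabp2 is lowest and Cyp26b1 is among the lowest in the basal gate, Cyp26b1 is highest in the inner bulge and granular gates, and the Rarg points lie between 193 and 377 CPM in every gate.

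Crabp2 (chr3:87855973-87860683, plus strand) had the most calls, and they differed in direction between gates. In inner bulge-gated cells it stood at 179 and 118 CPM in ctr and 599 and 685 CPM in CerS4epi-/- mice, a log2 change of 2.11 ± 0.27 (SE; edgeR adjusted p = 2.4e-05). The inner bulge gate of CerS4epi-/- mice held more Krt79, at 51.3 and 76.9 against 692 and 808 CPM, and held 4 and 5 cells with 3 or more counts of it, against 1 in each ctr mouse. Without such cells, an alternative added after the data were seen, Crabp2 stood at 173 and 121 against 330 and 396 CPM, a change of 1.26 ± 0.28 (edgeR adjusted p = 0.0218). When each cell was given instead to the class of its highest marker score, the change was 0.03 (edgeR adjusted p = 0.930). In upper hair follicle-gated cells it stood at 365 and 310 against 549 and 569 CPM, a change of 0.78 ± 0.11 (edgeR adjusted p = 0.00127). The share of cells expected to hold a count after thinning to 1200 counts was 29.4% and 25.3% against 35.6% and 36.2%, and 0.111 to 2.00% in T cells. That call held under 13 of 14 alternatives, and was lost in cells with at most 4 of the 6 markers (249 and 212 against 276 and 241 CPM, log2 change 0.16, edgeR adjusted p = 0.504). In cells with 5 markers Crabp2 stood at 423 and 355 against 553 and 520 CPM, and in cells with 6 at 750 and 616 against 984 and 1019 CPM. 

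In outer bulge-gated cells Crabp2 was lower in CerS4epi-/- mice, at 415 and 291 CPM in ctr and 114 and 205 CPM, a log2 change of -1.14 ± 0.29 (SE; edgeR adjusted p = 0.0393). The fall moved with that of the upper hair follicle markers in this gate, and the part of these cells in it was not tested. In the cells with 5 or more Cst6 counts, where Cst6 fell too, Crabp2 stood at 743 and 532 against 188 and 385 CPM, whereas those with under 5 held 86.9 and 114 against 78.1 and 75.9 CPM (log2 change -0.32, edgeR adjusted p = 0.777). The call was lost under 8 of 15 alternatives. Beside that one they were DESeq2 (adjusted p = 0.108), leaving out ctr replicate 1 (-0.87) or CerS4epi-/- replicate 1 (-0.72, edgeR adjusted p = 0.319 and 0.202) and the class of highest marker score, with a change of 0.01. They were also at least 2000 counts per cell (-1.13, edgeR adjusted p = 0.0758), at most 10% mitochondrial counts (-0.92, edgeR adjusted p = 0.364) and the gate without its 4 altered markers (-0.44, edgeR adjusted p = 0.351). The outer bulge change minus the upper hair follicle change was -1.91 ± 0.24 (edgeR adjusted p = 8.5e-06). It passed the threshold under all 13 alternatives run on it, and 3.04% of all genes passed in that comparison. Those alternatives did not include the Cst6 split, the split by upper hair follicle markers or the gate without those 4 bulge markers.

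In spinous-gated cells Crabp2 was lower, at 144 and 194 CPM in ctr and 98.6 and 119 CPM in CerS4epi-/- mice, a log2 change of -0.64 ± 0.14 (SE; edgeR adjusted p = 0.0429), a call that was lost without CerS4epi-/- replicate 1 (-0.52, edgeR adjusted p = 0.122) and under 4 other alternatives on which cells enter (-0.68 to -0.55, edgeR adjusted p = 0.0531 to 0.0875). In basal-gated cells its levels of 6.07 and 7.35 against 10.2 and 20.8 CPM did not overlap, but the change of 1.24 ± 0.32 did not pass the threshold (edgeR adjusted p = 0.0571), although it did with DESeq2 (adjusted p = 0.00546) and without CerS4epi-/- replicate 1 (1.68, edgeR adjusted p = 8.1e-06). In granular-gated cells the genotypes overlapped, at 214, 235, 220 and 174 CPM. Across classes Crabp2 was higher in upper hair follicle- than in basal-gated cells by 5.63 ± 0.19, in outer bulge- than in basal-gated cells by 4.47 ± 0.39 and in spinous- than in basal-gated cells by 3.83 ± 0.29 (log2; edgeR adjusted p = 2.1e-07, 1.2e-06 and 6.7e-07). 

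Cyp26b1 (chr6:84548396-84570890, minus strand), the cytochrome P450 that breaks down retinoic acid, was high in the inner bulge and granular gates. In ctr mice it was highest in inner bulge-gated cells (467 ± 33.8 CPM, SD, n = 2) and next in granular-gated cells (175 ± 12.1 CPM). The mice of these classes did not overlap with each other or with those of the next class, the outer bulge-gated cells at 61.7 ± 37.0 CPM. The 2 lowest classes were basal- and spinous-gated cells at 3.05 ± 0.15 and 1.41 ± 0.13 CPM. It was higher in inner than in outer bulge-gated cells by 3.01 ± 0.24 and in granular- than in spinous-gated cells by 7.80 ± 0.12 (log2; edgeR adjusted p = 2.5e-04 and 9.8e-12). In CerS4epi-/- mice it rose in granular-gated cells, from 167 and 184 to 237 and 303 CPM, a change of 0.70 ± 0.11 (SE; edgeR adjusted p = 0.00470) that kept its side of the threshold under all 13 alternatives. In inner bulge-gated cells its levels were 491 and 444 CPM in ctr and 303 and 256 CPM in CerS4epi-/- mice, with no overlap, and the change of -0.73 ± 0.24 did not pass the threshold (edgeR adjusted p = 0.0873). Without the cells of 3 or more Krt79 counts these levels were 490 and 443 against 385 and 314 CPM (-0.44, edgeR adjusted p = 0.436), and with the class of highest marker score the change was -0.77 (edgeR adjusted p = 0.0102). The genotypes overlapped in outer bulge-gated cells, at 35.6, 87.9, 41.2 and 28.8 CPM.

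The receptors had no genotype call. Rarg (chr15:102143373-102165952, minus strand) stood at 377, 372, 337 and 336 CPM in basal-gated cells and at 325, 319, 284 and 273 CPM in upper hair follicle-gated cells, lower in both CerS4epi-/- mice than in both ctr mice. The log2 changes were -0.10 and -0.16 and did not pass the threshold (edgeR adjusted p = 0.433 and 0.294). It was lower in granular- than in spinous-gated cells by 0.18 ± 0.06 on the log2 scale of the fit (-0.18, edgeR adjusted p = 0.0219) and in outer bulge- than in basal-gated cells (-0.43 ± 0.14, edgeR adjusted p = 0.0382). Rxra (chr2:27566452-27653330, plus strand) stood at 70.2 and 72.9 CPM in ctr and at 55.8 and 54.2 CPM in CerS4epi-/- upper hair follicle-gated cells (-0.32 ± 0.10, edgeR adjusted p = 0.0674), and at 66.8, 71.2, 66.7 and 71.1 CPM in basal-gated cells. It was lower in inner than in outer bulge-gated cells (-1.27 ± 0.30, edgeR adjusted p = 0.0340) and higher in spinous- than in basal-gated cells (0.51 ± 0.05, edgeR adjusted p = 3.3e-06).

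Between classes the threshold was passed by 4 higher and 1 lower of 7 tested members between outer bulge- and basal-gated cells (24.4% of all genes) and by 1 higher and 1 lower of 5 between inner and outer bulge (7.05%). It was passed by 5 higher of 8 between upper hair follicle and basal (65.1%), by 5 higher and 2 lower of 8 between spinous and basal (67.3%) and by 5 higher and 1 lower of 8 between granular and spinous (80.5%). The TMM scale of the fit and plain CPM differ here: over all genes the granular to spinous log2 ratio had a median of -0.63 in plain CPM and -0.08 in the fit. Rxra, at 86.8 ± 3.02 CPM in spinous- and 60.0 ± 4.38 CPM in granular-gated cells (SD, n = 4), therefore had a fitted difference of 0.01, and Rdh10, at 12.02 ± 1.92 and 17.6 ± 1.25 CPM, one of 1.11. Rarg, fitted as higher in spinous- than in basal-gated cells by 0.12 (edgeR adjusted p = 0.0244), was lower there in plain CPM in both ctr mice, at 358 and 353 against 377 and 372 CPM.

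Of the 49 other genes of the retinoid pathway, listed with earlier results known, 31 were tested in upper hair follicle-gated cells, where 6 rose and 2 fell (25.8%, against 13.9% of all genes), and 30 in basal-gated cells, where 6 rose and 3 fell (30%, against 6.82%). In outer bulge-gated cells 2 of 14 rose (14.3%, against 6.05%) and in inner bulge-gated cells 3 of 5 (60%, against 6.53%). In spinous-gated cells 1 of 32 rose, and in granular-gated cells 3 of 31 rose and 1 fell, shares of 3.13% and 12.9% that lay near the 4.57% and 11.3% of all genes. These counts include genes that entered the fit through the CerS4epi-/- mice alone, such as Stra6 and Lrat. The uptake and binding genes Stra6 and Fabp5 rose in both upper hair follicle- and basal-gated cells.

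Stra6, the membrane receptor that takes up retinol from its carrier and a known retinoic acid target, was nearly at 0 in ctr. It therefore entered the fits through the CerS4epi-/- mice alone, and its calls carry that limit. Its counting intervals pool the 2 mice of a genotype and do not cover variation between mice. In basal-gated cells it was counted 0 and 2 times in ctr and 555 and 243 times in CerS4epi-/- mice, 0 and 0.171 against 38.9 and 22.7 CPM, a ratio of 366 with a counting interval of 101 to 3023 (edgeR adjusted p = 8.1e-04). In upper hair follicle-gated cells it stood at 0.311 and 0.414 against 64.9 and 34.2 CPM, a ratio of 144 with an interval of 39.8 to 1193 (edgeR adjusted p = 1.96e-04). In inner bulge-gated cells Stra6 was counted 0 times in all 4 mice. In shares expected after thinning to 1200 counts, 0.463% and 0% of the 41 and 48 Aldh1a2-positive cells of the upper hair follicle gate held Stra6, against 7.26% and 4.43% of the negative cells. In the outer bulge gate these shares were 0% and 0.703% against 0.838% and 1.13%, too low to be told apart at this depth. The gene overlaps Ccdc33, Islr and Gm16131, the last on the same strand, so part of its counts could belong to these. The basal and upper hair follicle calls held under all 13 and all 14 alternatives. In spinous-gated cells 3 and 21 counts gave a ratio of 10.1 (3.03 to 53.1; edgeR adjusted p = 0.0403). The spinous call was lost under 4 of 9 alternatives, among them DESeq2 (adjusted p = 0.153) and leaving out either ctr mouse (edgeR adjusted p = 0.0642 and 0.161).

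**Figure D4:**
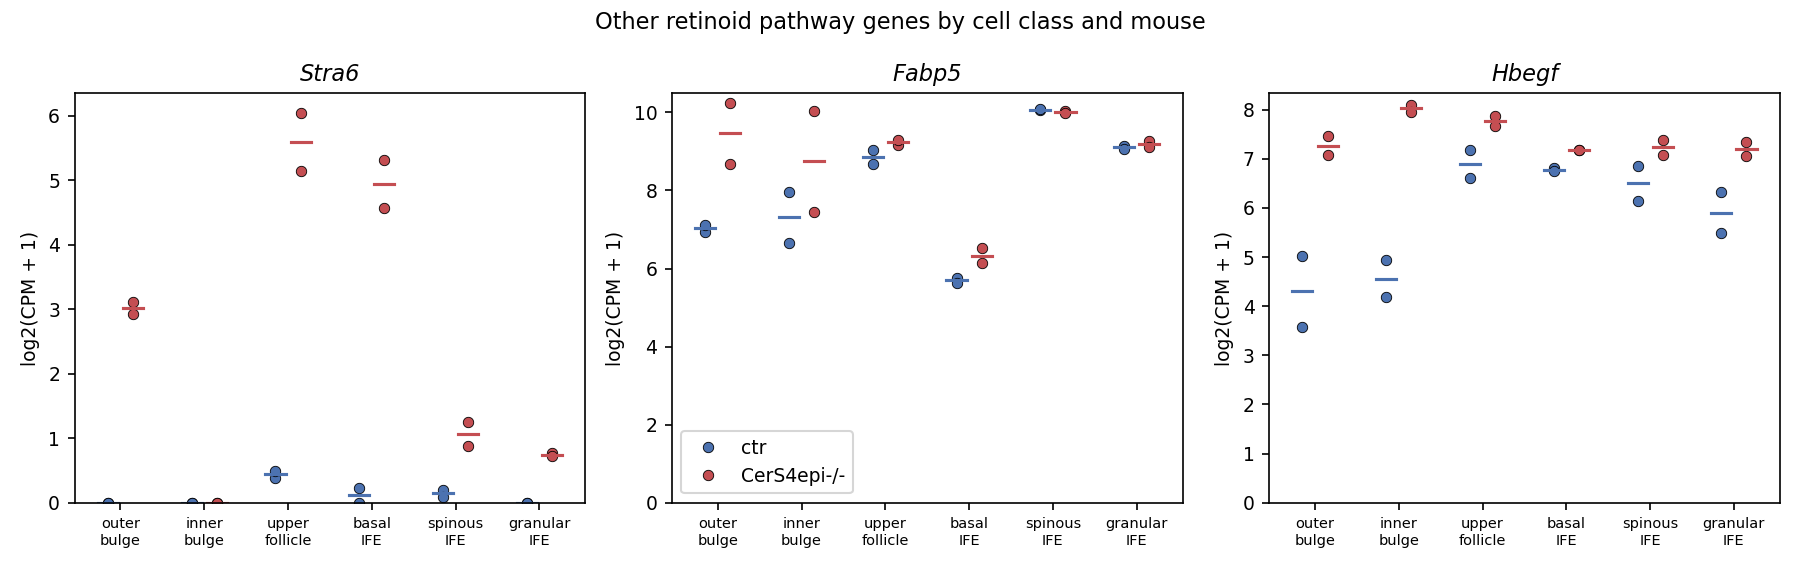
Level of Stra6, Fabp5 and Hbegf as log2(CPM + 1) (y axes, each with its own range from 0) in 6 keratinocyte gates (x axes, IFE is the interfollicular epidermis), with 1 point per mouse and a bar at the mean of 2 mice. Stra6 lies under 0.415 CPM in every ctr mouse and gate and at 22.7 to 64.9 CPM in the basal and upper hair follicle gates of CerS4epi-/- mice, and the Hbegf points of the genotypes do not overlap in any of the 6 gates. In a single gate 46.8% to 58.7% of all genes tested do not overlap.

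Fabp5, a fatty acid-binding protein that also binds retinoic acid and had the highest mean level of the list, rose in outer bulge-gated cells from 122 and 137 to 409 and 1218 CPM (log2 change 2.68 ± 0.46, SE; edgeR adjusted p = 0.00415) and in upper hair follicle-gated cells from 409 and 521 to 577 and 627 CPM (0.43 ± 0.12, edgeR adjusted p = 0.0394). With the outer bulge gate set without Lhx2, Postn, Cd34 and Nfatc1 the first change was 0.36 (edgeR adjusted p = 0.409). The second was lost under 5 of 14 alternatives, among them cells with at most 4 of the 6 markers (0.02, edgeR adjusted p = 0.949), leaving out ctr replicate 1 (0.27) and leaving out CerS4epi-/- replicate 2 (0.37, edgeR adjusted p = 0.149 and 0.162). In inner bulge-gated cells it was called as well (1.85, edgeR adjusted p = 0.0342), although its levels of 248 and 101 against 175 and 1055 CPM overlapped and the change was -0.10 without CerS4epi-/- replicate 2 (edgeR adjusted p = 0.940), 1 of 7 alternatives of 13 that ended the call. Hbegf, an epidermal growth factor receptor ligand known to be induced by retinoic acid, rose in 5 gates, from 31.6 and 10.98 to 175 and 134 CPM in the outer bulge (2.77 ± 0.40, edgeR adjusted p = 0.00159) and from 17.1 and 29.6 to 273 and 247 CPM in the inner bulge (3.52 ± 0.39, edgeR adjusted p = 3.0e-06). Its upper hair follicle call was lost in cells with at most 4 markers (0.38, edgeR adjusted p = 0.144) and its basal call without either ctr mouse (edgeR adjusted p = 0.0558 and 0.0696). Lrat, which esterifies retinol for storage, was counted 0 times in ctr and 22 and 19 times in CerS4epi-/- upper hair follicle-gated cells, at least 4.997-fold higher against the floor of 3 counts over the group. 

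Among the dehydrogenases, Rdh12, a retinal reductase, rose in upper hair follicle-gated cells (142 and 159 to 195 and 231 CPM, 0.56 ± 0.11, edgeR adjusted p = 0.00911) and in inner bulge-gated cells (1.16, edgeR adjusted p = 0.0476). The first call was lost without CerS4epi-/- replicate 2 (0.44, edgeR adjusted p = 0.0543) and in cells with at most 4 markers (0.24, edgeR adjusted p = 0.240). The second was lost under 11 of 13 alternatives, among them leaving out either ctr mouse or CerS4epi-/- replicate 2 (edgeR adjusted p = 0.0503 to 0.328). The retinol dehydrogenase Sdr16c6 rose in upper hair follicle-gated cells (67.1 and 72.04 to 107 and 128 CPM, edgeR adjusted p = 0.00195), a call lost in cells with at most 4 of the 6 markers (0.45, edgeR adjusted p = 0.0942). Sdr16c6 also rose in basal-gated cells, from 1.61 and 1.79 to 3.57 and 3.73 CPM (1.15 ± 0.26, edgeR adjusted p = 0.0375). Its neighbour Sdr16c5, also a retinol dehydrogenase, rose in basal-gated cells from 7.14 and 8.80 to 12.3 and 16.6 CPM (0.90 ± 0.19, SE; edgeR adjusted p = 0.0313). The call was lost under 3 of 13 alternatives, among them leaving out ctr replicate 1 or CerS4epi-/- replicate 2 (edgeR adjusted p = 0.133 and 0.0566). Rdh1, another retinol dehydrogenase, rose in granular-gated cells from 48.4 and 55.7 to 73.0 and 75.2 CPM (0.58 ± 0.10, edgeR adjusted p = 0.00614) and there kept its side of the threshold under all 13 alternatives. In upper hair follicle-gated cells Rdh1 fell instead, from 39.4 and 42.0 to 29.6 and 27.7 CPM (-0.45 ± 0.13, edgeR adjusted p = 0.0438). It overlaps Rdh16f1 on the same strand, to which part of its counts could belong. Adh7, listed with these dehydrogenases, rose in basal-gated cells from 82.2 and 79.6 to 106 and 101 CPM (0.42 ± 0.08, edgeR adjusted p = 0.0205). Bco1, which cleaves carotene to retinal, fell in upper hair follicle-gated cells from 9.32 and 8.28 to 4.04 and 4.36 CPM (-1.03 ± 0.27, edgeR adjusted p = 0.0315). It was lost under 7 of 14 alternatives, among them DESeq2 (adjusted p = 0.280) and leaving out ctr replicate 1 or either CerS4epi-/- mouse (edgeR adjusted p = 0.0955 to 0.144). Of the other Aldh1a genes, Aldh1a7 fell in basal-gated cells from 18.7 and 22.9 to 9.39 and 6.90 CPM (-1.27 ± 0.18, edgeR adjusted p = 0.00762) and in granular-gated cells (-1.19, edgeR adjusted p = 0.00253). Aldh1a1 fell in basal-gated cells from 9.91 and 7.35 to 3.78 and 3.17 CPM (-1.23 ± 0.22, edgeR adjusted p = 0.0181), a call lost without ctr replicate 1 (-1.01, edgeR adjusted p = 0.0920) and with at most 10% mitochondrial counts (-1.12, edgeR adjusted p = 0.0650). Aldh1a1 and Aldh1a7 are near-identical copies between which reads could be split, so which of them fell is uncertain. The corepressor Ncor1 and the retinoid-responsive gene Rarres1, both among the 5 highest of the list, had no genotype call in any gate, at 151, 154, 154 and 170 CPM and at 12.2, 16.5, 11.1 and 18.6 CPM in basal-gated cells. In granular-gated cells the coactivator Ncoa2 rose from 43.9 and 48.8 to 54.1 and 58.4 CPM (0.35 ± 0.10, edgeR adjusted p = 0.0465). This call was lost under 7 of 13 alternatives, among them DESeq2 (adjusted p = 0.115) and leaving out ctr replicate 1 or either CerS4epi-/- mouse (edgeR adjusted p = 0.0758 to 0.205). In basal-gated cells the corepressor Nrip1 fell from 84.7 and 80.4 to 63.7 and 51.7 CPM (-0.45 ± 0.11, edgeR adjusted p = 0.0482). That call was lost under 5 of 13 alternatives, among them leaving out either ctr mouse or CerS4epi-/- replicate 2 (edgeR adjusted p = 0.101 to 0.202).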

How the data were processed

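The deposited files hold STARsolo expected counts per gene and cell barcode, made by the authors with fastp 0.23.2 and STAR 2.7.10a on GRCm39, with reads of several genes shared out by expectation maximisation, so 4.55% to 4.81% of entries were not whole. The matrices were not filtered to cells. Whether the counting used strand is not given in the sources used here.

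A cell needed 1200 or more counts, no more than 20% of them mitochondrial, with library totals of 39231945 to 53106317 counts, and gated by marker counts, in the order T cell, Langerhans cell, sebaceous gland, inner bulge, outer bulge, upper hair follicle, granular, spinous, basal. No doublet caller was run. The counts of a class were summed per mouse, with at least 20 cells per mouse, rounded and fitted across all genes with edgeR 4.0.16 (R 4.3.3; TMM, filterByExpr, quasi-likelihood test, Benjamini-Hochberg adjustment, threshold 0.05). Class comparisons and the difference between the outer bulge and upper hair follicle changes had the mouse as a block. The replicates are separate mice. An exact permutation test of 2 against 2 mice cannot go below p = 0.333 (two-sided), so none was used. Shares after thinning are exact expected shares (hypergeometric). Levels are plain CPM of the summed counts, with a pseudocount of 1 on log2 scales. Folds against a group at 0 use a floor of 3 counts over the group. Intervals (95%, exact) and floors cover counting error only.

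The scripts were tested on simulated data. Alternatives were DESeq2 1.42.0, its size factors, no filter, each mouse left out, other cell cutoffs and gates, and the replicate block. The retinoid genes and lists were chosen with earlier results of these data known. A pair of listed genes and 1 promoter are not reported here and enter no count of the list. Named are all 9 genes, the pathway genes called between genotypes, the 5 highest, and the 5 most like Aldh1a2.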

Additional observations from a re-analysis of the deposited data

Results flagged for a closer look

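The genotype change in outer bulge-gated cells differed from that in upper hair follicle-gated cells, by a test of the difference itself, for Crabp2 (-1.91, edgeR adjusted p = 8.5e-06) and for 3 other genes of the retinoid pathway. Fabp5 differed by 2.09 (edgeR adjusted p = 3.7e-04), Hbegf by 1.95 (edgeR adjusted p = 0.00382) and Rdh12 by -1.54 (edgeR adjusted p = 0.00103), where 3.04% of all genes passed. The values of Fabp5 and Hbegf lost the threshold in cells given to the class of highest marker score (0.65 and -0.03) and without the mouse as a block (edgeR adjusted p = 0.0502 and 0.0966). That of Hbegf was also lost with DESeq2 (adjusted p = 0.0663) and without either ctr mouse (edgeR adjusted p = 0.0867 and 0.0601), and that of Rdh12 without ctr replicate 1 (-1.35, edgeR adjusted p = 0.0985).

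Aldh1a2 was also counted in barcodes that were not kept as cells, 28 times in CerS4epi-/- replicate 1 and 44 times in replicate 2, that is 5.44 and 10.4 CPM, against 0 and 0.5 counts in the ctr mice. These levels stood beside 4.07 and 9.94 CPM over the kept cells of the same mice.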

How the results depend on the processing

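Of 1591 alternative values of 139 results, 1334 kept their side of the threshold or, for counts, stayed within 1.5 times. Of the rest, 156 lost a call, 20 gained one, 75 counts moved further and 6 values changed sign with a call in either setting. Values with no call in either setting are among the 1334 whatever their sign. The causes of these changes were not tested. The genotype comparisons called 357 genes in the outer bulge, 223 in the inner bulge, 1607 in the upper hair follicle, 887 in basal, 581 in spinous and 1355 in granular cells, with 1, 1, 3, 1, 2 and 3 retinoid genes. With DESeq2, 176, 84, 859 and 873 genes were called in the outer bulge, inner bulge, upper hair follicle and granular cells, and 119 against 315 for the outer bulge minus upper hair follicle difference. With DESeq2, 0 retinoid genes passed in the outer bulge, where 513 of all genes had an unadjusted p under 0.05, 1 in the upper hair follicle, 1 in spinous cells, 3 against 5 for outer bulge over basal and 1 against 2 for inner over outer bulge. Without a filter on low counts, 592 genes and 2 retinoid genes were called in the outer bulge, 1956 and 2 in basal cells, 1549 genes in spinous cells and 698 against 259 between inner and outer bulge. With at least 2000 counts per cell, 0 retinoid genes passed in outer bulge and spinous cells. With at most 10% mitochondrial counts, 180, 500 and 332 genes and 0 retinoid genes passed in outer bulge, basal and spinous cells, and the inner bulge was not run, with under 20 cells in a mouse. With the class of highest marker score, 851 and 829 genes were called in the outer and inner bulge and 574 in basal cells, with 0 retinoid genes in outer bulge and basal cells and 5 in the upper hair follicle. Without the 5% of cells with most counts, 663 genes were called in granular cells, with 1 retinoid gene in spinous cells and 2 for the outer bulge minus upper hair follicle difference. Without cells with a dermal, endothelial or mural count, 105 genes were called in the inner bulge and 849 in granular cells, with 2 retinoid genes in basal and 1 in spinous cells. The outer bulge gate without Lhx2, Postn, Cd34 and Nfatc1 gave 109 genes and 0 retinoid genes. Alternatives chosen after seeing the data gave 47 genes and 0 retinoid genes in outer bulge cells with fewer than 5 Cst6 counts, 869 and 0 in upper hair follicle cells with at most 4 markers and 69 genes in inner bulge cells with fewer than 3 Krt79 counts.

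Leaving out each mouse in turn gave 162 to 394 genes and 0 to 1 retinoid genes in the outer bulge, 973 to 1771 and 1 to 4 in the upper hair follicle, 369 to 1473 and 0 to 2 in basal cells and 1 to 2 retinoid genes in spinous cells. The lowest of these came without ctr replicate 1 in the outer bulge and basal cells and without CerS4epi-/- replicate 2 in the upper hair follicle. It gave 2 to 4 retinoid genes for outer bulge over basal, 149 to 237 genes and 1 retinoid gene for inner over outer bulge, and 134 to 285 genes and 1 to 2 retinoid genes for the outer bulge minus upper hair follicle difference. A lone mouse of a group was assumed to vary like the other group.

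The values that changed sign with a call in either setting were Crabp2 in the outer bulge (0.0094), Rdh12 in the inner bulge (-0.17) and Hbegf in the outer bulge minus upper hair follicle difference (-0.034) with the class of highest marker score, Aldh1a3 in upper hair follicle cells with at most 4 markers (-1.26), Fabp5 in the inner bulge without CerS4epi-/- replicate 2 (-0.10, against up to 2.67 without another mouse) and Aldh1a3 in granular against spinous cells without ctr replicate 2 (-0.66, against up to 1.00 without another mouse).

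Mice with the same replicate number share only that number: their deviations correlated at -0.04 to 0.11. With the number as a replicate block, 536 genes were called in the outer bulge, 1721 genes and 2 retinoid genes in basal, 1186 genes in spinous and 2474 in granular cells. Without the mouse as a replicate block, the outer bulge minus upper hair follicle difference called 181 genes. Counts of 26 to 133 bulge cells per mouse limit what can be detected there.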
